A study of Mus musculus with 14 samples.

Results

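Chromatin immunoprecipitation with sequencing (ChIP-seq) recovers the DNA that a protein lies on, and a peak is a stretch where its reads pile up. The peaks described here are those of AHCY on mouse chromosome 11, without the window from 95 to 100 Mb (mm9 build, positions counted from 1). A peak belonged to the set when its midpoint lay on that chromosome and outside that window. This gave 348 of the 4465 peaks in the list of replicate 1 (7.79%) and 463 of the 11733 peaks in the list of replicate 2 (3.95%). Each list was divided into peaks with at least 1 bp inside a peak of the other list, called shared, and the rest. The comparison set was the 15 autosomes other than 6, 8, 11 and 14, called the reference autosomes, which had 3504 peaks in the first list and 4384 in the second. The chromosome was chosen by its number of peaks per Mb, and the window was left out because of its surplus of replicate 2 peaks. Both measures are therefore given as descriptions, with no test, and the split into shared and other peaks is likewise no finding.

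Both libraries came from unmodified E14TG2a mouse embryonic stem cells, a male line of strain 129/Ola. The cells were kept naïve, without serum, in N2B27 medium with LIF, the MEK inhibitor PD0325901 and the GSK3 inhibitor CHIR99021. Both were made with the same rabbit antibody against AHCY and are labelled wild type. The series of 14 libraries also holds 1 ChIP-seq library with rabbit IgG and 11 RNA-seq libraries, which are not analysed here. Nothing in the labels says whether the replicates were separate cultures, the lists give no read numbers, so depth is unknown, and expression markers of the cell type cannot be read from them.

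AHCY, S-adenosylhomocysteine hydrolase, breaks down the S-adenosylhomocysteine that every methyl transfer from S-adenosylmethionine leaves behind. S-adenosylhomocysteine inhibits methyltransferases, including those that methylate histones and DNA, so its removal near chromatin bears on methylation there. Mouse chromosomes are acrocentric: the centromere lies at the start of the numbering, so proximal means low positions and distal means high ones.

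Chromosome 11 was the densest of the 16 autosomes compared when peaks were counted per length. Outside the window it held 3.08 peaks per Mb in replicate 1 and 4.10 in replicate 2, over a span of 113 Mb between the first and last peak of either list. The reference autosomes held 1.86 and 2.33 peaks per Mb when pooled, so chromosome 11 stood at 1.65 times their density in replicate 1 (exact 95% interval 1.48 to 1.85) and 1.76 times in replicate 2 (1.59 to 1.93). With all other autosomes as reference the replicate 2 ratio turned to 0.841, since chromosomes 6 and 8 held 6291 of the peaks in its list, while that of replicate 1 was 1.72. Merging overlapping peaks gave 183 shared regions, 1.62 per Mb against 0.863, a ratio of 1.88 (1.60 to 2.19). In replicate 1 the next densest, chromosome 19, was almost level at 3.05 peaks per Mb, and in replicate 2 it had 3.73. The intervals cover counting error only, and because neighbouring peaks are not independent they are too narrow. They also take no account of the choice of this chromosome by its density, so they are no test of it.

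The label of a gene-dense chromosome held in the gene table at hand. RefSeq's table for GRCm38.p6 places 1609 protein-coding genes on chromosome 11, which is 13.6 per Mb of its whole peak span in mm9. This was the highest of the 16 autosomes, level with chromosome 7 (also 13.6) and above the reference median of 8.09. That table is of a later build than the peaks, so it was used only to count genes per chromosome. No gene was assigned to a peak, and no sequence is printed, since no genome of the peaks' build was at hand.

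Counted per gene, the whole of chromosome 11 lay inside the range of the other autosomes in replicate 1. Window included, it held 24.2 peaks per 100 coding genes, inside the 15.3 to 25.1 of the reference autosomes, and the peaks outside the window alone made 21.6. In replicate 2 the peaks outside the window made 28.8 per 100 coding genes, inside the reference range of 17.7 to 34.5, while the whole chromosome reached 41.9, above it. The 211 replicate 2 peaks of the window therefore decided the replicate 2 value. The genes of the window could not be taken off the denominator without converting coordinates, so the values outside it are too low by an unknown amount. Over the reference autosomes pooled there were 21.9 and 27.3 peaks per 100 coding genes. Chromosome 7 was the lowest in both replicates, although as rich in coding genes per Mb as chromosome 11.

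**Figure D1:**
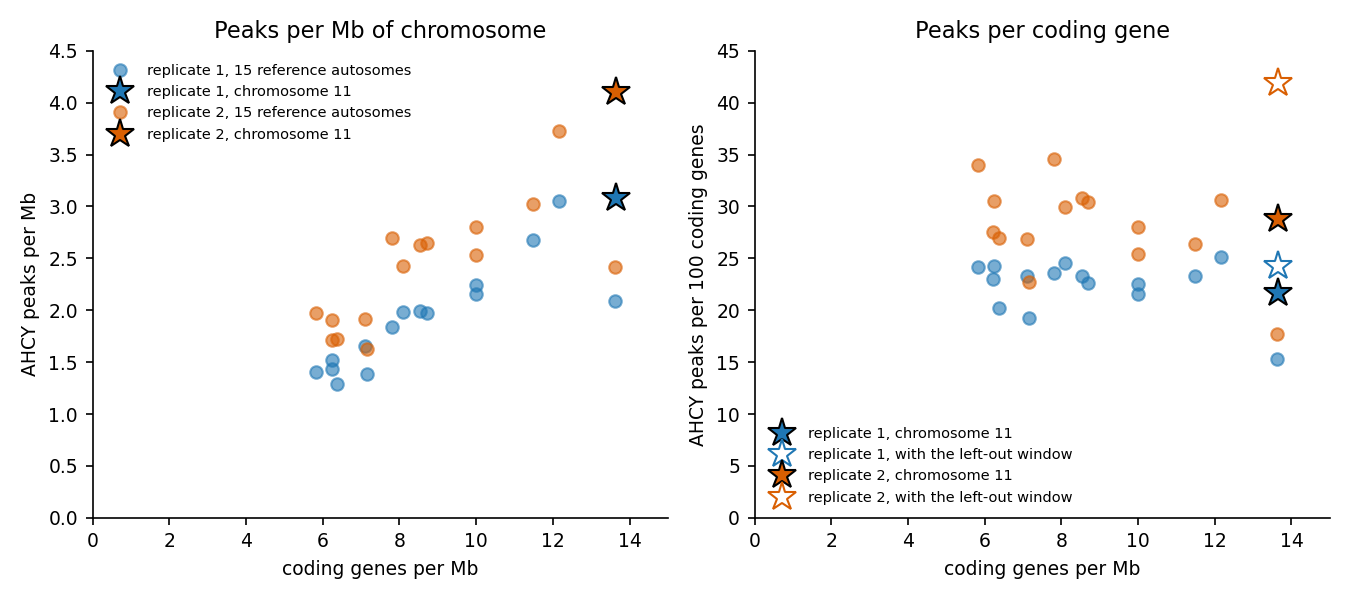
AHCY peaks per Mb (left) and per 100 protein-coding genes (right) against coding genes per Mb for 16 autosomes in both replicates. Circles are the 15 reference autosomes, filled stars are chromosome 11 without 95 to 100 Mb, and open stars (right) are the whole chromosome. Chromosome 11 is highest per Mb in both replicates, while per gene its filled stars (21.6 and 28.8) lie among the circles. The filled stars on the right are too low, because the genes of the window are still counted.

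Across the 16 autosomes, peaks per Mb and coding genes per Mb rose together, with a Spearman's rho of 0.903 in replicate 1 and 0.779 in replicate 2. Without chromosome 11 rho was 0.882 and 0.732 over the 15 reference autosomes. Median peak width followed gene density too, with rho of 0.706 and 0.709 over the 16 autosomes. Median score did not do so in both, at 0.350 and -0.138. These are descriptions over chromosomes that share 2 libraries and a gene table.

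The high density of chromosome 11 lay mainly in its middle and distal parts. Up to 50 Mb there were 80 peaks in replicate 1 and 99 in replicate 2, or 1.71 and 2.11 per Mb. This was below the 1.86 and 2.33 of the pooled reference autosomes over their whole length. From 50 to 95 Mb the numbers were 147 and 228 (3.27 and 5.07 per Mb). Beyond 100 Mb they were 121 and 136 (5.73 and 6.44 per Mb). Width changed in the same order in both replicates. The median peak was 1438.5 bp wide in replicate 1 up to 50 Mb, 1745 bp in the middle and 2027 bp beyond 100 Mb. In replicate 2 the corresponding medians were 1390, 1512.5 and 1737.5 bp. The 3 stretches were chosen after the positions had been seen.

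**Figure D2:**
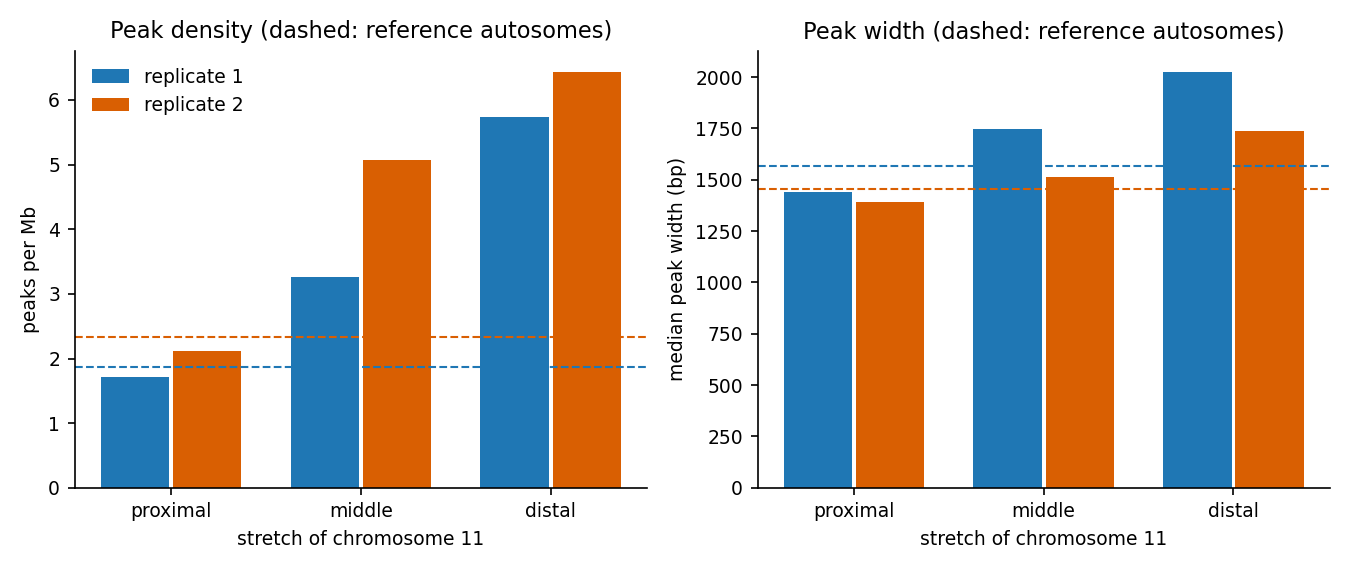
Peaks per Mb (left) and median peak width in bp (right) in 3 stretches of chromosome 11 (proximal up to 50 Mb, middle from 50 to 95 Mb, distal beyond 100 Mb) for each replicate. Dashed lines are the pooled reference autosomes over their whole length, not their matching parts. The proximal bars lie below the lines of their own replicate and the middle and distal bars above them.

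Such a distal rise was not peculiar to chromosome 11. When each span was divided into 3 equal parts, the distal part of chromosome 11 was 2.49 times as dense as its proximal part in replicate 1 and 2.48 times in replicate 2. The reference autosomes ranged from 0.364 to 3.31 times in replicate 1 and from 0.494 to 5.05 times in replicate 2, and chromosome 11 ranked 5 and 3 among the 16. Set beside other proximal parts, that of chromosome 11 was not sparse. It held 1.75 and 2.14 peaks per Mb, against reference medians of 1.35 and 1.65, and ranked 6 among the 16 in both lists. Median widths there, 1510 and 1406.5 bp, were near the reference medians of 1494 and 1403 bp. The middle part of chromosome 11 was the densest middle part of the 16 in both lists. It held 3.28 peaks per Mb in replicate 1 (reference range 0.822 to 2.93) and 5.01 in replicate 2 (0.949 to 3.17). Its distal part had the widest median peak of the 16 distal parts, 1904 bp (reference range 1285 to 1810 bp) and 1630 bp (1227 to 1626 bp), the latter by a narrow margin.

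Both replicates placed their peaks in the same parts of the chromosome. In 24 windows of 5 Mb, numbers ran from 4 to 40 in replicate 1 and from 3 to 51 in replicate 2, with a rho of 0.921 between them. The fullest window was 115 to 120 Mb, with 40 and 51 peaks. It was followed over both lists by 75 to 80 Mb (27 and 45), 100 to 105 Mb (32 and 36) and 50 to 55 Mb (23 and 35). The emptiest were 35 to 40 and 40 to 45 Mb, each with 5 replicate 1 peaks and 3 replicate 2 peaks. The proximal part was not uniformly poor: 20 to 25 Mb held 21 and 27 peaks. On the reference autosomes rho was 0.897 over 395 windows, where the median window held 7 and 9 peaks, against 15 and 18 on chromosome 11.

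At finer scale most of the chromosome held peaks. Of 114 windows of 1 Mb, 81 held a replicate 1 peak and 90 a replicate 2 peak, and 20 (17.5%) held none of either list, against 29.6% of reference windows. The 5 fullest began at 102 Mb (16 and 18 peaks), 120 Mb (15 and 18), 115 Mb (12 and 16), 77 Mb (8 and 18) and 116 Mb (11 and 12). Together they held 17.8% of the peaks of the first list and 17.7% of the second. The longest stretch without a peak of either list was chr11:37050085-43495281, which is 6445197 bp long. The next were chr11:89164260-93745925, of 4581666 bp, and chr11:12365129-16650843, of 4285715 bp.

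Outside the window the number of replicate 2 peaks on chromosome 11 was 1.33 times that of replicate 1 (exact 95% interval 1.16 to 1.53), against 1.25 on the reference autosomes pooled (1.20 to 1.31; single autosomes 1.13 to 1.46). Inside the window the numbers were 42 and 211. The middle stretch, which borders the window on its proximal side, stood highest at 1.55 (1.26 to 1.92). The distal stretch, which borders the window on its other side, stood lowest at 1.12 (0.873 to 1.45). The proximal stretch gave 1.24 (0.912 to 1.68), and the 3 intervals overlap. Replicate 2 had more peaks in 9 of 9 middle windows of 5 Mb, in 5 of 10 proximal ones (equal in 2) and in 4 of 5 distal ones. The same windows were not counted on the reference autosomes, where replicate 2 also had more peaks.

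**Figure D3:**
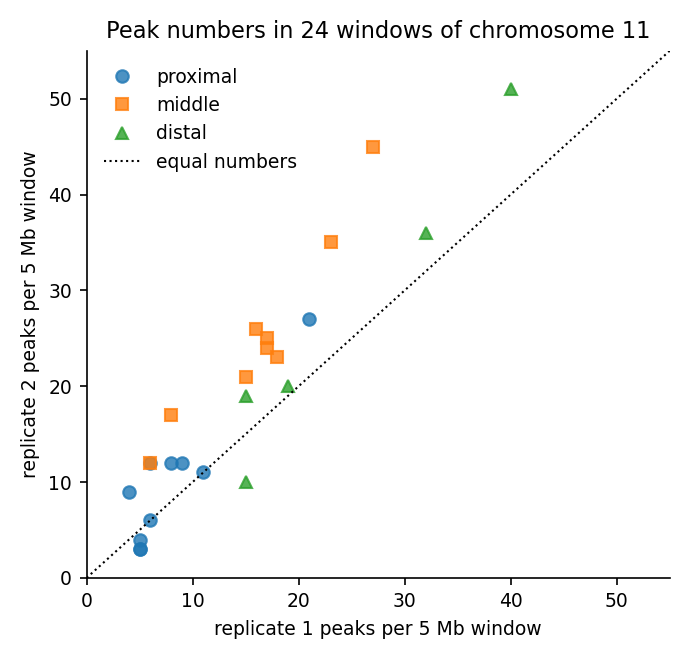
Replicate 2 against replicate 1 peak numbers in 24 windows of 5 Mb on chromosome 11, the last of which is only partly filled by the chromosome. The first window holds no peak of either list below 3 Mb. Points above the dotted line have more replicate 2 peaks. The 9 middle windows all lie above it, and the fullest window (40 and 51) is distal.

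The limits of the left-out window fell between the following neighbours. The last replicate 1 peak before 95 Mb was at chr11:94936286-94938917 (score 85.3) and the first after it at chr11:95119316-95121390 (74.3). In replicate 2 these were chr11:94981282-94984354 (127) and chr11:95119808-95121244 (66.6). Around 100 Mb the replicate 1 neighbours were chr11:99091092-99092659 (52.3) and chr11:100181187-100182510 (52.8), and those of replicate 2 were chr11:99283026-99284977 (69.4) and chr11:100257098-100259179 (114). No peak of either list crossed a limit, so none was in doubt.

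Peaks of chromosome 11 were wide in both replicates, although the margin over the other autosomes differed. The median width was 1748 bp in replicate 1 (interquartile range 1332 to 2376 bp), 181 bp above the 1567 bp of the reference autosomes. In replicate 2 it was 1531 bp (1194 to 2077.5 bp), 74.5 bp above 1456.5 bp. Only chromosome 7 had a higher median in replicate 1, at 1765 bp, and 3 reference autosomes were above chromosome 11 in replicate 2. Peaks of 3 kb or more made up 11.5% of the first list's members (40 peaks) and 5.62% of the second's (26 peaks), against 7.71% and 4.33% on the reference autosomes.

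Chromosome 11 peaks were also wider than pooled reference peaks of similar score. The score is the peak caller's own value for each peak and starts at 50 in both lists. It has no stated meaning in the sources used here. Score ranks, medians and differences are therefore taken within a list, and their size has no known unit. Wider peaks scored higher, with a rho of 0.358 between width and score in replicate 1 and 0.438 in replicate 2. Each whole list was divided into 4 groups of equal size by score, and within each group the median chromosome 11 peak was compared with the median reference peak. It was wider in 8 of 8 such comparisons with the pooled reference, by 51 to 277.5 bp. Single autosomes were wider in most groups. From the weakest to the strongest group, chromosome 11 ranked 1, 3, 2 and 2 among 16 in replicate 1. In replicate 2 it ranked 5, 3, 6 and 3. In the strongest group the medians were 2287 and 2009.5 bp in replicate 1, and 1991 and 1854.5 bp in replicate 2.

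Scores themselves were close to those of other autosomes. The median was 69.1 in replicate 1 against 67.4 on the reference autosomes, and 74.9 in replicate 2 against 73.5. In both lists chromosome 11 ranked 4 among 16, within ranges of 64.5 to 70.3 and 72.0 to 77.7. Of the 100 best peaks among chromosome 11 and the reference autosomes together, 10 lay on chromosome 11 in each list, where 9.03% and 9.55% of all these peaks lay. The best peaks thus fell on chromosome 11 about as often as peaks in general, although 10 peaks cannot show a small surplus. Counted per Mb, the better-scoring 50% of each list stood at 1.69 and 1.79 times the reference density.

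The share of peaks found in both lists lay within the spread of the other autosomes. Of the replicate 1 peaks, 183 of 348 were shared (52.6%, exact 95% interval 47.2 to 57.9%), against a background of 46.7% on the reference autosomes (51.4% over all chromosomes). Of the replicate 2 peaks, 184 of 463 were shared (39.7%, 35.3 to 44.4%), against 37.5% (19.7% over all chromosomes). Both shares lay inside the range of single reference autosomes, 43.1 to 53.8% and 31.3 to 42.6%. The replicate 1 background lay just below the interval of chromosome 11 and the replicate 2 background inside it. These intervals cover counting error only and treat peaks of 1 library as independent, so they are too narrow. No excess is read from them. Denser peaks of the other list also raise the share that meet one by position alone, and how far this did so here was not tested.

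Shared peaks had higher scores and were wider than unshared ones in both lists. A wider peak also meets the 1 bp criterion more easily, and how far this made the width difference was not tested. In replicate 1 shared peaks had a median score of 73.2 and unshared ones of 62.1. The difference of 11.1 was smaller than on any reference autosome (12.6 to 22.0). Replicate 2 gave medians of 95.7 and 66.8, which differed by 28.9, inside the reference range of 10.2 to 41.7. The median widths were 1872 and 1669 bp in replicate 1, and 1714 and 1449 bp in replicate 2. That replicate 2 difference of 265 bp was above the range of the reference autosomes, -18 to 244 bp, while the 203 bp of replicate 1 was inside its range.

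The share of peaks with a partner increased with score in both lists. In replicate 1, from the weakest to the strongest group, 36.9, 49.4, 58.1 and 64.8% were shared, compared with 26.2, 36.5, 52.1 and 71.5% on the reference autosomes. The value of the weaker middle group lay above the range of single reference autosomes (25 to 47.5%), and the other groups lay inside theirs. In replicate 2 the shares were 14, 36.4, 40.8 and 65.2%, compared with 20.1, 27.9, 42.0 and 59.7%. All 4 lay inside the ranges of single autosomes, and the weakest group was on the other side of the reference from that of replicate 1.

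**Figure D4:**
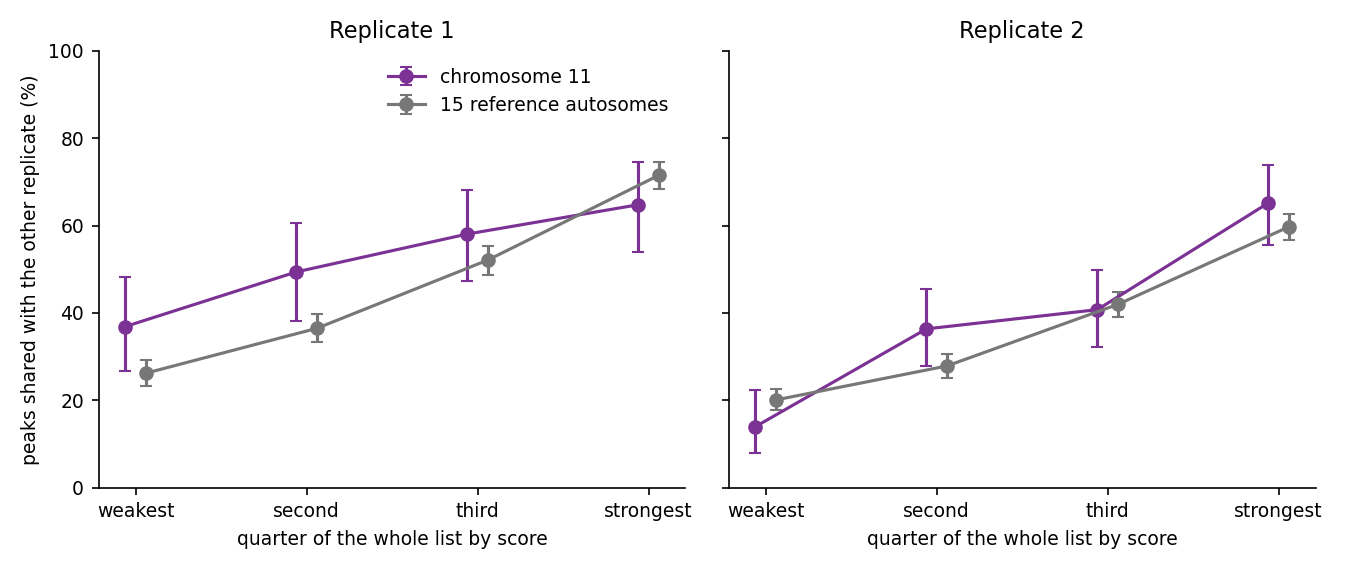
Percentage of peaks shared with the other replicate in 4 score groups of each whole list, for chromosome 11 outside the window and for the 15 reference autosomes. Bars are exact 95% intervals for counting error. The share rises from the weakest to the strongest group in both replicates, from 36.9 to 64.8% and from 14 to 65.2% on chromosome 11.

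Shares by width were set beside those of the reference autosomes. Below 1 kb, 5 of 24 replicate 1 peaks (20.8%, exact 95% interval 7.13 to 42.2%) and 14 of 57 replicate 2 peaks (24.6%, 14.1 to 37.8%) were shared, against 25.2% and 22.5% of reference peaks. From 1 to 2 kb, 52.9% and 38.8% were, against 46.8% and 39.0%. From 2 to 3 kb the shares were 57.7% and 44.1%, against 55.2% and 41.7%. At 3 kb or more, 23 of 40 (57.5%, 40.9 to 73.0%) and 17 of 26 (65.4%, 44.3 to 82.8%) were shared, against 55.6% and 52.1%. The largest gap, that of replicate 2 at 3 kb or more, rests on 26 peaks. Along the chromosome, replicate 1 shares were 51.2, 55.8 and 49.6% in the proximal, middle and distal stretches. Replicate 2 shares were 41.4, 36.4 and 44.1% there. The intervals overlap, but they are wide and cover counting error only, so they do not show that the share was constant.

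Overlapping peaks were centred on each other about as closely as on the reference autosomes. The overlap criterion itself limits how far apart their midpoints can lie. There were 184 overlapping pairs, since 1 replicate 1 peak met a pair of replicate 2 peaks. The median distance between their midpoints was 195 bp (interquartile range 69.2 to 415 bp), compared with 182 bp on the reference autosomes. Within 500 bp lay 149 pairs (81.0%, reference 82.2%). The median overlap was 1408.5 bp, and the median share of the shorter peak was 99.5% (reference 99.5%). In 60 pairs (32.6%, reference 33.3%) the replicate 2 peak lay wholly inside the replicate 1 peak, and in 26 (14.1%, reference 13.4%) the reverse held. The replicate 1 peak was the wider in 113 pairs (61.4%, reference 62.9%).

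Width was reproduced more closely than score. Over the 184 pairs, rho was 0.621 for width and 0.360 for score, and single reference autosomes ranged from 0.443 to 0.636 and from 0.112 to 0.399. These are descriptions over peaks of 1 pair of libraries, and both lists are truncated at a score of 50.

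**Figure D5:**
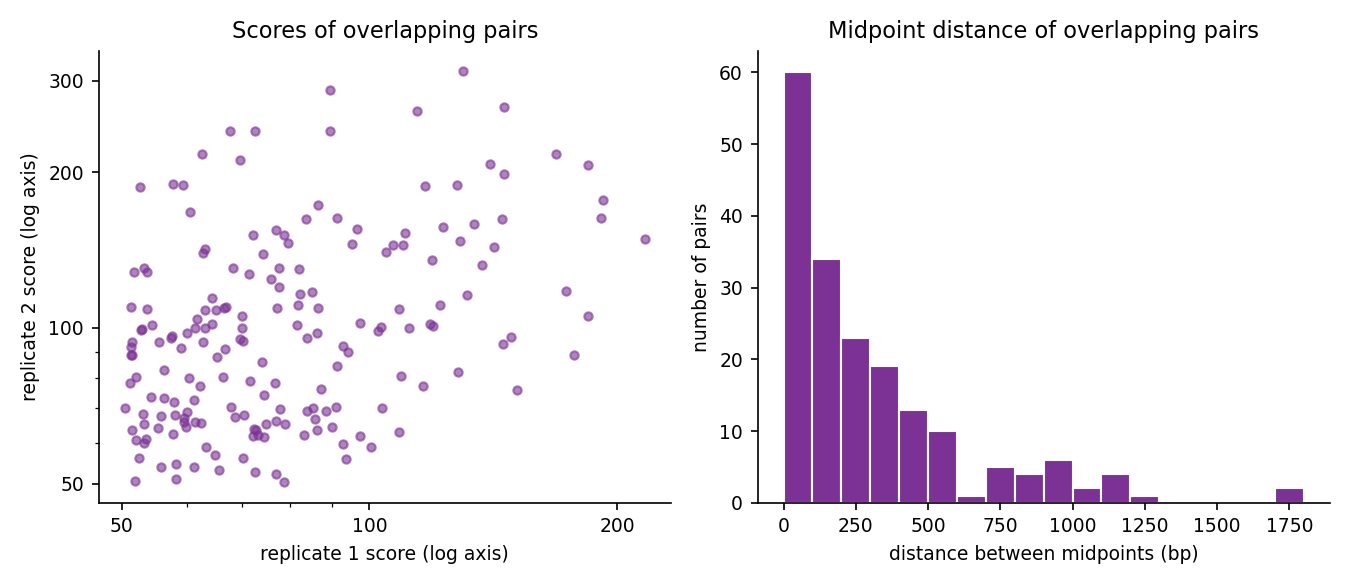
Left, scores of the 184 overlapping pairs of chromosome 11 on log axes; right, number of pairs by distance between their midpoints in bp. The scores scatter widely (rho 0.360), while the midpoints of 60 pairs lie within 100 bp of each other (32.6%, reference 34.5%).

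The least overlapping pair shared 7 bp, between chr11:94071482-94072391 in replicate 1 (score 97.3) and chr11:94072385-94073263 in replicate 2 (61.7). The next least shared 601 bp. Just outside the criterion, the replicate 2 peak at chr11:102177933-102179159 (68.1) missed a replicate 1 peak by 45 bp, and the replicate 1 peak at chr11:88863516-88864887 (79.7) missed a replicate 2 peak by 432 bp. Few peaks were near misses: of the unshared ones, 5 of 165 in replicate 1 and 8 of 279 in replicate 2 lay within 1 kb of the other list. These were 3.03% and 2.87%, against 3.10% and 2.52% on the reference autosomes. The median distance was 46.7 kb and 54.2 kb, compared with 57.2 kb and 91.7 kb on the reference autosomes, whose peaks are sparser.

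Close spacing of peaks differed between the replicates. In replicate 1, 62 peaks (17.8%) had a neighbour of the same list within 20 kb between midpoints, in 26 groups of at most 4 peaks, which was inside the reference range of 11.8 to 29.4%. In replicate 2, 133 peaks (28.7%) did, in 59 groups of at most 5, just above the reference range of 9.64 to 28.4%. Of the grouped peaks 43.5% were shared in replicate 1, against 54.5% of the others, and 32.3% in replicate 2, against 42.7%. On the reference autosomes the same shares were 42.8% against 47.6% and 35.5% against 37.96%. These differences were not tested. The largest group was at chr11:77275396-77322250 in replicate 2, with 5 peaks of which 1 was shared. In replicate 1 groups of 4 peaks lay at chr11:102291141-102302947, chr11:102961168-102995383 and chr11:120645715-120688153.

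The shared sites that ranked best in both lists are given by position, since no gene of this build could be named. The order is by the mean of both within-list ranks, each divided by the length of its list. First came chr11:117514609-117517778, with scores of 184 in replicate 1 and 206 in replicate 2. It was followed by chr11:72420358-72422330 (169 and 216) and chr11:61667310-61669732 (146 and 267). The site at chr11:120208482-120213555 had the highest replicate 2 score of any chromosome 11 peak outside the window, 313, with 130 in replicate 1. The highest replicate 1 score, 216, belonged to chr11:106648168-106651000, which had 148 in replicate 2.

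The other sites among the best 10 were chr11:6314622-6317173 (192 and 176), chr11:117823272-117832067 (146 and 198), chr11:33046742-33049116 (140 and 208), chr11:33412674-33414422 (191 and 163) and chr11:59917635-59920843 (145 and 162). Of the best 10, 4 lay beyond 100 Mb, 3 in the middle stretch and 3 in the proximal one, where 60, 82 and 41 of the 183 shared replicate 1 peaks lay. Of all 183 shared regions, 30 were among the best 10% of replicate 1, 29 among the best 10% of replicate 2, and 13 among both. The same counts were not made for the reference autosomes, so they show no trait of chromosome 11. Shared peaks had higher median scores than unshared ones there too, by 15.9 in replicate 1 and 24.7 in replicate 2.

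The widest shared sites were spread over the ranks. The 183 shared regions were 1006 to 8796 bp wide, with a median of 2130 bp, and covered 436 kb in all. The widest, at chr11:117823272-117832067, was also the sixth in rank, with a single peak of 8796 bp in replicate 1 and of 5706 bp in replicate 2. The next widest were chr11:116936740-116942920 (6181 bp), chr11:63732579-63738469 (5891 bp), chr11:76432863-76438704 (5842 bp) and chr11:77975836-77981659 (5824 bp). These 4 ranked 43, 12, 108 and 64 among the 183. In the first and the third the replicate 1 peak made up the whole width, 6181 and 5842 bp, and the replicate 2 peak inside it measured 2707 and 2781 bp. At chr11:63732579-63738469 the replicate 2 peak was the wide one, at 5891 bp against 2460 bp.

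Some strong peaks had no partner. In replicate 1 the best were chr11:100479948-100481943 (score 168, rank 90 of its list), whose nearest replicate 2 peak lay 19247 bp away, and chr11:101176920-101178516 (167, rank 96), at 53958 bp. The third, chr11:8910217-8911576 (140, rank 207), was 1795724 bp from any replicate 2 peak, the most isolated of the unshared replicate 1 peaks. In replicate 2 the best were chr11:33099847-33105122 (268, rank 242), chr11:80964774-80967532 (197, rank 611) and chr11:4997753-5000263 (173, rank 860). The first of these was a wide peak of 5276 bp. Its nearest replicate 1 peak, 50730 bp away, was that of the shared site at chr11:33046742-33049116. This distance was near the median of 54.2 kb for unshared replicate 2 peaks.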

How the data were processed

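Peak lists of 2 AHCY ChIP-seq libraries were used. Per the file headers and peak names, the authors called peaks separately for each list with MACS. No source used here gives its version, threshold or control, except that the replicate 2 header names an IgG pool and the replicate 1 header a pool. The submitters' processing notes name mm9, Bowtie and TopHat, without roles. The deposited score per peak has no stated meaning, and the other deposited values are starts and ends in bp. The lists give no depth.

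Starts were converted to count from 1. Overlap, density, width, score, spacing and distance were computed from both lists; nothing was tested, since peaks of 2 libraries are not replicates. Intervals are exact (Clopper-Pearson, 95%). Planted overlaps in simulated data were used to check the overlap step. The chromosome, window, gene counts, alternatives and stretches were chosen with earlier results of these data known. Named are the 10 best-ranked and 5 widest shared regions, the 3 best unshared peaks per list, the 5 fullest windows, the 3 longest gaps, and the peaks nearest to each limit. The tools were scipy 1.17.1, pandas 2.3.3, numpy 2.4.6, networkx 3.6.1 and matplotlib 3.10.9 under Python 3.11.15.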

Additional observations from a re-analysis of the deposited data

How the results depend on the processing

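Of 43 values under other settings, 25 stayed within the interval or replicate SD of the main value, 17 moved beyond it and 1 reversed. For score differences that SD sets the scores of both lists side by side, although their scale is not stated. With all other autosomes as reference, the replicate 2 density ratio fell to 0.841, since chromosomes 6 and 8 hold 6291 of its peaks; the mean of the replicates was then 1.28 and the median score differences were 2.02 and 2.12. With 95 to 100 Mb counted, the density ratio was 2.45 in replicate 2 and 2.11 for the mean, the ratio of peak numbers 1.73, and the share of replicate 2 peaks 31.6%. The differences from the reference were then 258.5 bp in width for replicate 2, and 1.24 and 3.66 in score. Over windows of 1 Mb that hold a peak, the density ratios were 1.41, 1.499 and, as mean, 1.45. The better-scoring 50% of each list gave shares of 45.3 and 33.9%. There partners were also sought only among the better-scoring 50% of the other list, so peaks with weaker partners counted as unshared. A reciprocal overlap of 50% gave 44.5 and 33.5%. The mean density ratio of 1.705 was 1.65 to 1.76 with 1 replicate left out. Per 100 genes of any kind, chosen after seeing the data, chromosome 11 outside the window stood at 11.3 and 14.998. The reference ranges were 7.47 to 12.9 and 8.65 to 15.7. These 2 values are too low, because the genes of the window are still counted, so their place in the ranges is not settled. The whole chromosome stood at 12.6 in replicate 1, inside the range, and at 21.8 in replicate 2, above it. No paired analysis was possible because no result comes from a test between groups. Unknown depth limits what a missing peak means.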
